A study of Homo sapiens with 6 samples.

Results

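The 9 genes PHGDH, PSAT1, PSPH, SHMT1, SHMT2, MTHFD1, MTHFD1L, MTHFD2 and ALDH1L2 encode the enzymes that make serine and move its carbon through folate. They were chosen by name, and all 9 were found among the 28563 genes of the expression table by matching Ensembl identifiers to GENCODE symbols. The cells were labelled HepG2, an established human cell line derived from a liver cancer, and the identity of the line was not tested. They were kept for 24 h either with polydatin (PD), a plant-derived stilbene glucoside, or with its solvent DMSO alone as the control. The sample labels give the dose of PD as 336 µM, while the paper states a lower one. Each treatment had 3 dishes with 1 RNA-seq library each, and no genotype or further agent separated the groups. A single line was used, so the values describe these cultures and not liver cells at large, and in bulk RNA, fewer cells of a kind and less RNA per cell cannot be told apart.

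Serine is made from a glycolytic intermediate in a short chain of reactions, and folate then carries the carbon that serine donates. In mitochondria this carbon is passed on until it leaves as formate, and in the cytosol it is used for purines, thymidylate and methionine. The pathway is known for its high activity in many proliferating cancer cells, and its genes are known to be under the control of transcription factors such as ATF4 and MYC. Expression is given as FPKM, the fragments counted on a gene, scaled by the length of the gene and by the total of the library. Whole fragments could be worked back from these values, which gave library totals of 16763318 to 17274927 in DMSO and of 16308476 to 18071632 in PD. The 9 genes had between 851 and 21477 fragments in a library. Of 20 hepatocyte markers, 9 were found in the expression table, and the rest, ALB and AFP among them, had no entry there. The reason for their absence was not tested. Of the 9 found, only RBP4 and CPS1 reached 1 FPKM in any library. The other 7, HNF4A, SERPINA1 and APOA1 among them, stayed at or below 0.172 FPKM, so these defining markers of the labelled cell type were at or near 0. The summed hepatocyte list was 222 to 229 FPKM in DMSO and 107 to 113 FPKM in PD, nearly all of it from CPS1, an enzyme of the urea cycle. RBP4, a carrier of retinol, moved the other way, from 0.391 ± 0.080 FPKM in DMSO to 1.30 ± 0.38 FPKM in PD (SD, n = 3 each), on 8 to 44 fragments in a library. Of 4 epithelial markers, EPCAM, KRT8 and KRT18 reached 1 FPKM. The sum of all 4 was 95.4 to 101 FPKM in DMSO and 114 to 120 FPKM in PD. KRT8 was higher by 0.45 on the log2 scale, and EPCAM and KRT18 were not called. CDH1 had a mean of 0.127 FPKM in DMSO and 0.034 FPKM in PD and was too low to be tested. Of 5 fibroblast markers, 3 were found in the expression table, and COL1A1 alone reached 1 FPKM. Their sum was 3.58 to 4.25 FPKM in DMSO and 3.60 to 4.04 FPKM in PD. The summed markers of leukocytes and of endothelium stayed at or below 0.180 and 0.068 FPKM. The part of these markers in the results was not tested.

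Differential expression was tested by limma on log2(FPKM + 1) over the 14400 genes whose mean reached 0.5 FPKM, and p-values were adjusted over all of them (Benjamini-Hochberg). Genes with an adjusted p no higher than 0.05 were called, and a rise or fall is stated only for these. All 9 enzymes were tested, and 7 were called, with 5 higher and 2 lower in PD. Over all tested genes 58.1% were called, with 31.9% higher and 26.2% lower, so most tested genes were called and the count of 7 is not a result about the enzymes. The split between directions depended on scaling, with 4588 higher and 3780 lower genes on the deposited scale and 3798 higher and 4675 lower after upper-quartile scaling. In 7 of the 9 genes the 3 PD libraries lay entirely above or below the 3 DMSO libraries, as they did in 65.4% of all tested genes. None of the 9 reached a 2-fold change, which 3.61% of tested genes did. That share rests on the pseudocount, since 520 genes were called at 2-fold here, but 1248 once 0.1 replaced 1 and 1734 when voom was run on fragments, while the largest change among the enzymes, that of SHMT1, was 0.74 on the log2 scale with either alternative. The median log2 fold change was 0.17 for the 9 genes and 0.01 for all tested genes. The median absolute log2 fold change of all tested genes was 0.27, and 2 of the 9 enzymes, SHMT1 and MTHFD1L, exceeded it. An exact permutation test of 3 against 3 libraries cannot give a p below 0.10, so it adds nothing for single genes here.

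The enzymes differed widely in level. By mean FPKM over the 6 libraries, PSAT1 and PHGDH were above 99.6% and 99.2% of tested genes, MTHFD2 and SHMT2 were above 96.5% and 96.0%, and PSPH was above 93.7%. MTHFD1, MTHFD1L and SHMT1 followed, and ALDH1L2 stood lowest, above 55.5% of tested genes. In DMSO the levels descended from PSAT1 through PHGDH, MTHFD2, SHMT2, PSPH, MTHFD1L, MTHFD1 and SHMT1 to ALDH1L2, and among neighbours in this order only MTHFD2 and SHMT2 overlapped between libraries. In PD the order was PSAT1, PHGDH, MTHFD2, SHMT2, PSPH, MTHFD1, SHMT1, MTHFD1L and ALDH1L2, and only SHMT1 and MTHFD1L overlapped. By FPKM, the gene for the mitochondrial formate-releasing enzyme thus stood above both cytosolic enzymes in DMSO and at the level of SHMT1 in PD. These levels are per length, on the exon lengths used by the authors, and the order of MTHFD1L and MTHFD1 depends on those lengths. By fragments, MTHFD1 (3103 to 3878 in a library) stood above MTHFD1L (1414 to 2505) in every library.

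**Figure D1:**
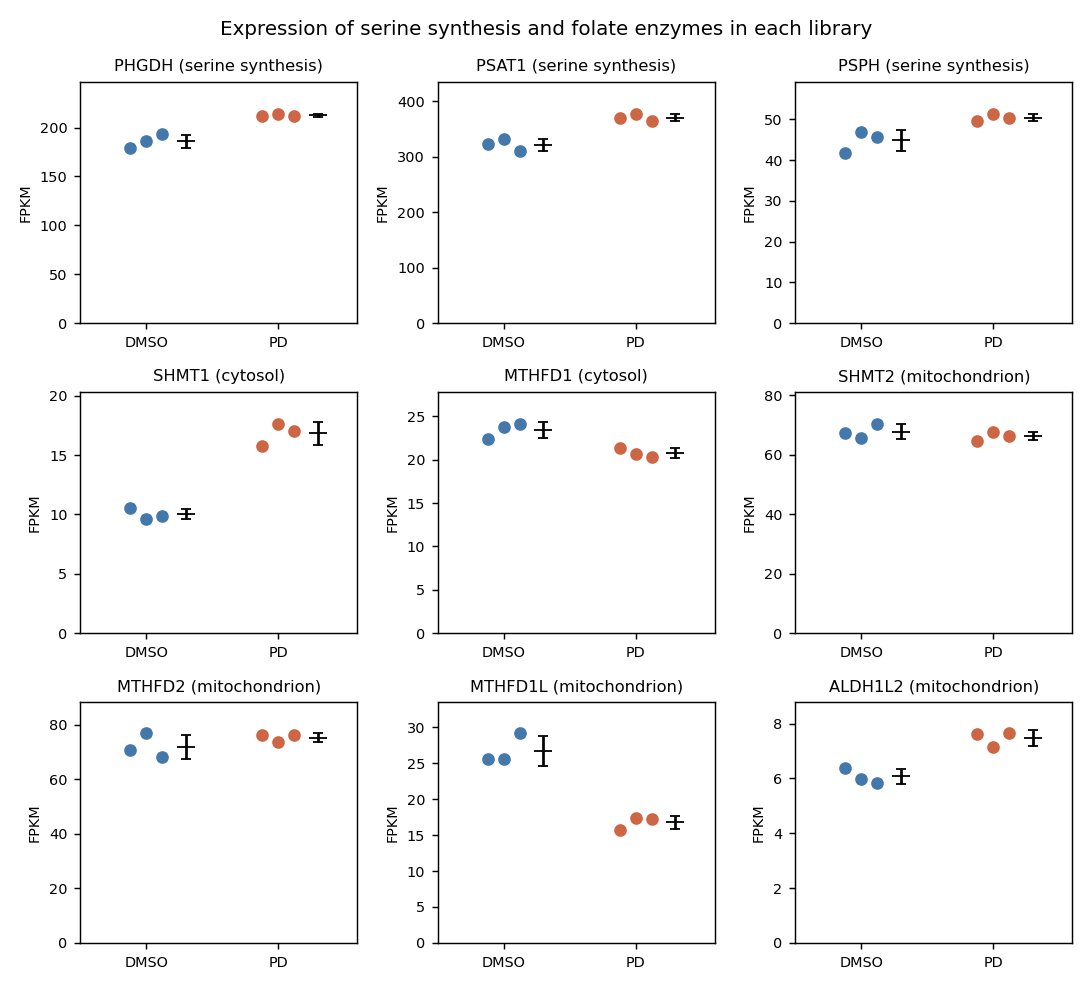
FPKM (vertical axes, from 0) of each enzyme in the 3 DMSO libraries (blue points) and the 3 PD libraries (orange points), with the mean and SD of each group in black. The PD points of SHMT1 and ALDH1L2 lie above all DMSO points, those of MTHFD1L lie below them, and those of SHMT2 and MTHFD2 overlap with them.

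The 3 genes of serine synthesis were all higher in PD, by 12.5% to 15.2% in mean FPKM. PHGDH encodes phosphoglycerate dehydrogenase, which commits a glycolytic intermediate to serine, and lies on chromosome 1 of GRCh38 (start 119648411, end 119744218). It had 180, 186 and 193 FPKM in DMSO replicates 1, 2 and 3 and 211, 214 and 212 FPKM in PD replicates 1, 2 and 3. All PD libraries lay above all DMSO libraries, and the PD libraries were closer to one another. The means were 186 ± 6.73 and 213 ± 1.40 FPKM (SD, n = 3 each). On the log2 scale this was a rise of 0.19 ± 0.03 (SE, limma adjusted p = 0.0016).

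PSAT1 encodes phosphoserine aminotransferase, the next enzyme of the chain, and lies on chromosome 9 from 78297125 to 78330093. Its FPKM were 323, 332 and 310 in DMSO and 370, 378 and 364 in PD, again without overlap. The log2 fold change was 0.20 ± 0.03 (SE, limma adjusted p = 0.0012). PSPH encodes phosphoserine phosphatase, which releases serine in the last step, and lies on chromosome 7 from 56011051 to 56051604. It had 41.8, 46.9 and 45.8 FPKM in DMSO and 49.7, 51.3 and 50.2 FPKM in PD, where the lowest PD library stood above the highest DMSO library. The log2 fold change was 0.17 ± 0.05 (SE, limma adjusted p = 0.017), and without PD replicate 2 the adjusted p was 0.057 at a log2 fold change of 0.15.

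The rise of the serine synthesis genes was small, and its call depended on how the libraries were scaled. Median-of-ratios scaling kept all 3 calls, at log2 fold changes of 0.17 for PHGDH, 0.18 for PSAT1 and 0.14 for PSPH. The adjusted p were 0.0069, 0.0033 and 0.048 (limma). When FPKM were divided by upper-quartile factors, PSAT1 remained called at a log2 fold change of 0.12, whereas PHGDH at 0.11 and PSPH at 0.08 had adjusted p of 0.051 and 0.20 (limma). On that scale the median log2 fold change of all tested genes was -0.05, against 0.01 on the deposited scale. The relative levels of the 3 genes within a library hardly moved. The ratio of PSAT1 to PHGDH was 1.73 ± 0.11 in DMSO and 1.74 ± 0.02 in PD (SD, n = 3 each), and that of PHGDH to PSPH was 4.16 ± 0.17 and 4.22 ± 0.04.

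PSPH has a pseudogene with a similar sequence, PSPHP1, which was listed at 33.9 ± 0.95 FPKM in DMSO and 46.8 ± 2.34 FPKM in PD (SD, n = 3 each), higher by 0.45 on the log2 scale. Reads that fit both genes could be split between them, so the value of PSPH is less certain. PSPHP1 is short, and it held 149 to 233 fragments in a library, where PSPH held 1996 to 2486. It was singled out after its values had been seen. The pseudogenes named after PSAT1, SHMT1, MTHFD1 and MTHFD2 that could be looked up stayed at or below 0.177 FPKM.

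**Figure D2:**
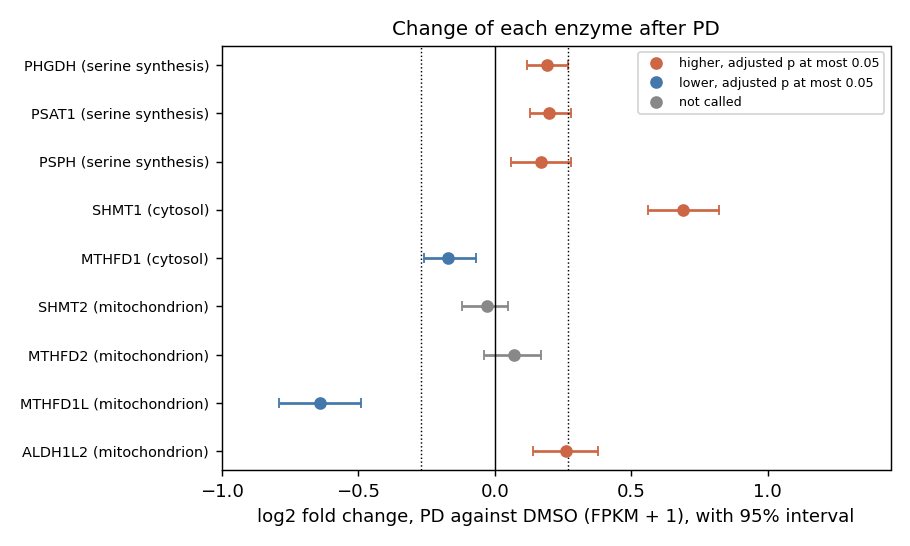
Log2 fold change of each enzyme in PD against DMSO on the FPKM + 1 scale (horizontal axis), with the 95% interval from limma and 3 libraries per treatment. Dotted lines mark the median absolute change of all tested genes, 0.27 on either side of 0, and only the points of SHMT1 (0.69) and MTHFD1L (-0.64) lie beyond them.

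Serine hydroxymethyltransferase takes the carbon from serine onto folate and leaves glycine, and cells have a cytosolic form, SHMT1, and a mitochondrial form, SHMT2. SHMT1 showed the largest rise among the 9 genes. It lies on chromosome 17 from 18327860 to 18363563, and it had 10.5, 9.65 and 9.91 FPKM in DMSO and 15.8, 17.7 and 17.0 FPKM in PD. The groups stood far apart relative to the spread within them, with means of 10.0 ± 0.45 and 16.8 ± 0.96 FPKM (SD, n = 3 each), a rise of 67.8%. The log2 fold change was 0.69 ± 0.05 (SE, limma adjusted p = 4.2e-05). Exons of SHMT1 share 197 bases with SMCR8 on the opposite strand, which is 2.81% of its exon length, and SMCR8 itself was at 12.7 FPKM in DMSO and 15.6 FPKM in PD.

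SHMT2, on chromosome 12 from 57229573 to 57234935, had 67.3, 65.5 and 70.4 FPKM in DMSO and 64.7, 67.5 and 66.3 FPKM in PD. The libraries of both treatments were intermixed. The log2 fold change was -0.03 with a 95% interval of -0.12 to 0.05 and an adjusted p of 0.46 (limma). With upper-quartile scaling it was -0.12, at an adjusted p of 0.05 that just met the threshold. Within a library, SHMT2 was at 6.39, 6.79 and 7.11 times the FPKM of SHMT1 in DMSO and at 4.10, 3.82 and 3.89 times in PD. This ratio does not depend on the scaling of a library, and its values in PD were all below those in DMSO.

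In mitochondria, MTHFD2 oxidizes the folate-bound carbon, and MTHFD1L then releases it as formate. MTHFD2 lies on chromosome 2 from 74186172 to 74217565 and had 70.9, 76.9 and 68.3 FPKM in DMSO and 76.2, 73.5 and 76.3 FPKM in PD. DMSO replicate 2 was the highest of all 6 libraries, and the groups overlapped. The log2 fold change was 0.07 with a 95% interval of -0.04 to 0.17 and an adjusted p of 0.26 (limma). Without DMSO replicate 2 it was 0.11 with an adjusted p of 0.038, so this one library decided whether MTHFD2 was called. With upper-quartile scaling the direction turned, at -0.02 and an adjusted p of 0.75.

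MTHFD1L showed the largest fall among the 9 genes. It lies on chromosome 6 from 150865679 to 151101887, and it had 25.6, 25.5 and 29.2 FPKM in DMSO and 15.7, 17.4 and 17.3 FPKM in PD. Every PD library lay well below every DMSO library, and the mean fell by 37.3%, from 26.8 ± 2.09 to 16.8 ± 0.95 FPKM (SD, n = 3 each). The log2 fold change was -0.64 ± 0.06 (SE, limma adjusted p = 1.3e-04). No exon of another gene overlaps those of MTHFD1L in GENCODE release 44. In that release, exons on the opposite strand overlap 11.57% of the MTHFD2 exon bases (SLC4A5, at most 0.019 FPKM in the group means). They overlap 7.67% of those of SHMT2 (a long noncoding RNA, at most 0.054 FPKM). Without strand the reads of such genes cannot be told apart, and the exon lengths that were counted differ from those of this release.

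MTHFD1 is the cytosolic enzyme that carries out, in a single protein, the steps divided among separate proteins in mitochondria. It lies on chromosome 14 from 64388031 to 64463457 and had 22.4, 23.8 and 24.2 FPKM in DMSO and 21.3, 20.7 and 20.3 FPKM in PD. The groups did not overlap, although the highest PD library was close to the lowest DMSO library. A noncoding RNA on the opposite strand shares 8.96% of its exon bases and was at 0.575 FPKM in DMSO and 0.316 FPKM in PD. The mean of MTHFD1 fell by 11.4%, and the log2 fold change was -0.17 ± 0.04 (SE, limma adjusted p = 0.011). The ratio of MTHFD1L to MTHFD1 within a library was 1.14, 1.07 and 1.21 in DMSO and 0.734, 0.839 and 0.851 in PD. The mitochondrial gene thus had the higher FPKM of this pair in each DMSO library and the lower one in each PD library. This order rests on the exon lengths used, since MTHFD1 had more fragments than MTHFD1L in every library (3103 to 3878 against 1414 to 2505). The fall of the ratio does not depend on these lengths.

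ALDH1L2, which oxidizes folate-bound formyl groups to carbon dioxide in mitochondria, lies on chromosome 12 from 105019784 to 105107643. It had 6.38, 5.98 and 5.85 FPKM in DMSO and 7.64, 7.14 and 7.64 FPKM in PD, without overlap. The rise was 23.1%, or 0.26 ± 0.05 on the log2 scale (SE, limma adjusted p = 0.0037). Its cytosolic relative ALDH1L1 was listed at 0 in 5 libraries and had 2 fragments in PD replicate 2, so no ratio was formed. MTHFD2L, a mitochondrial relative of MTHFD2, was at 1.24, 1.29 and 0.905 FPKM in DMSO and at 0.620, 0.674 and 0.662 FPKM in PD, a log2 fold change of -0.37 with an adjusted p of 0.016 (limma). The pseudocount of 1 shrinks the change of so low a gene, and voom on its fragments gave -0.80, while its mean FPKM fell by 43.2%. MTHFD2 had 57.0 to 75.5 times the FPKM of MTHFD2L in DMSO and 109 to 123 times in PD.

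**Figure D3:**
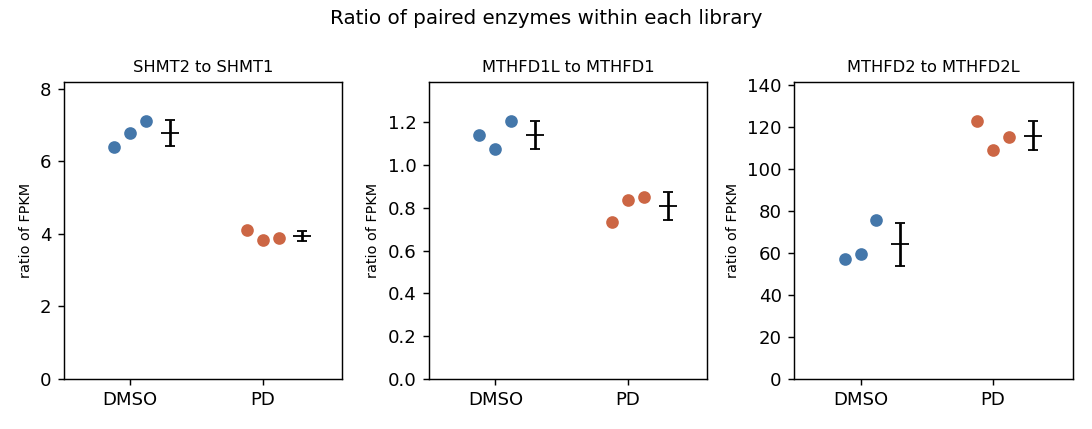
Ratio of FPKM within each library (vertical axes, from 0) for SHMT2 to SHMT1, MTHFD1L to MTHFD1 and MTHFD2 to MTHFD2L, in DMSO (blue points) and PD (orange points), with the mean and SD of the 3 libraries in black. The first ratio goes from 6.76 to 3.94 in the mean and the second from 1.14 to 0.81, while the third is higher in PD.

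For 6 of the 9 genes, RefSeq promoter windows of 250 bases before to 50 bases after a transcription start on GRCh38.p14 could be matched by symbol, 9 windows in all. PSPH, SHMT2 and ALDH1L2 are not among them. The windows were searched on both strands for TGATGNAA, a form of the composite element bound by ATF4 with C/EBP proteins, and for CACGTG, the E-box that MYC can bind. The first was found in 3.62% and the second in 7.26% of all 35116 windows in the set. Among the enzymes, 2 genes held a match, and these were MTHFD1L and MTHFD1. This count is per gene and the shares are per window, so they cannot be set side by side. In MTHFD1L both motifs lie in each of the 3 windows around its first starts, which overlap and so hold the same sites, and the E-box begins 25 bases before the composite element. Neither motif was found in the remaining window of MTHFD1L, around a later start, or in the windows of PHGDH, PSAT1, SHMT1 and MTHFD2. A match describes letters and not a bound factor. Only 6 of the enzymes had a window, and no relation to the changes was tested. The sites are shown with 8 bases on either side, in the direction of the gene, with the motif in capitals, at chr6:150866324-150866345 and chr6:150866349-150866372 for MTHFD1L and chr14:64388330-64388351 for MTHFD1, all on the plus strand.
MTHFD1L E-box: cccggctcCACGTGcgcagccg
MTHFD1L composite element: gccggctcTGATGCAAtcgcgccg
MTHFD1 E-box: tccctaagCACGTGggttgggt

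The 250 bases before the start are shown for PSAT1, the enzyme with the highest level, for SHMT1, which rose most, and for MTHFD1L, which fell most. They lie at chr9:78296875-78297124 on the plus strand, chr17:18363551-18363800 on the minus strand and chr6:150866083-150866332 on the plus strand. All are rich in G and C, with a GC content of 65.6%, 68.4% and 75.6%, and hold 30, 19 and 31 CG pairs. The last 13 bases before the start of SHMT1 are exonic in GENCODE, and the other stretches are not exonic. The MTHFD1L stretch lies within the annotated span of the gene, which begins upstream of it. They are printed in lower case, with no motif marked.
PSAT1: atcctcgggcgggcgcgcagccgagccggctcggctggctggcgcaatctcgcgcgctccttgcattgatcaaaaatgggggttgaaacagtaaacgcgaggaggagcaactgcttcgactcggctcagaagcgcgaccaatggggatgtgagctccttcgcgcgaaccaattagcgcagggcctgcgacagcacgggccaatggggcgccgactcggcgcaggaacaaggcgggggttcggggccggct
SHMT1: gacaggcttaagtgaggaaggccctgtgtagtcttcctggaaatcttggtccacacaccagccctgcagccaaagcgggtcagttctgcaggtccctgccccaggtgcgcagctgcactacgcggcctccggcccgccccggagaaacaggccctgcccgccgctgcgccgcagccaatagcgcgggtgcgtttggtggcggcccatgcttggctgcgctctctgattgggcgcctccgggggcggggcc
MTHFD1L: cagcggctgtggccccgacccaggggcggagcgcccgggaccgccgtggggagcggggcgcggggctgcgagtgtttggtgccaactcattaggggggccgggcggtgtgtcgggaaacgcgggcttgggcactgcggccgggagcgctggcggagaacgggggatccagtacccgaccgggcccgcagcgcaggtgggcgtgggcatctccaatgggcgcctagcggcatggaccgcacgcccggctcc

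Genes that share the folate pool were examined next. Of 19 genes of the folate cycle and folate transport, 16 were tested, 7 were higher and 5 lower, and the median log2 fold change was 0.20. This count and those of the lists that follow stand against 58.1% called over all tested genes, 31.9% higher and 26.2% lower, and none was tested against that background. SLC25A32 and SFXN3 were among the genes of this list with the largest changes. SLC25A32 carries folate into mitochondria, and it fell from 16.5, 17.5 and 13.0 FPKM to 8.80, 9.23 and 8.34 FPKM, a log2 fold change of -0.76 with an adjusted p of 5.7e-04 (limma). GENCODE release 44 places exons of an overlapping gene on the same strand over 69.7% of the exon bases of SLC25A32. That gene has no entry in the expression table. DCAF13 on the opposite strand shares 11.11% of these bases and was at 6.59 FPKM in DMSO and 6.10 FPKM in PD. The value of SLC25A32 is thus less certain. SFXN3, a mitochondrial serine carrier, rose by 0.72 on the log2 scale, while its relative SFXN1 was lower at -0.24.

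Some genes of this list were singled out after their values had been seen. FOLR1, the folate receptor, was at 856 ± 29.3 FPKM in DMSO and 1039 ± 69.8 FPKM in PD (SD, n = 3 each), higher than any of the 9 enzymes in both treatments, with a log2 fold change of 0.28. TYMS, which makes thymidylate, had a log2 fold change of 0.37, and GART and ATIC, which use formyl-folate for purines, had -0.25 and -0.24, and all of them were called by limma. Of 11 further genes of purine synthesis, all were tested, 5 were higher and 4 lower (58.1% called over all genes). PAICS (-0.53) and PFAS (-0.41) of the chain that builds the purine ring were lower, and IMPDH1 (0.43), which leads to guanine nucleotides, was higher. ENOSF1 on the opposite strand shares 39.94% of the exon bases of TYMS, which makes the value of TYMS uncertain.

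In the methionine cycle and transsulfuration, 10 of 13 genes were tested, with 2 higher and 5 lower in PD (31.9% and 26.2% over all genes) and a median log2 fold change of -0.18. MAT2A, which makes S-adenosylmethionine, had 139.5 ± 4.39 FPKM in DMSO and 89.7 ± 1.11 FPKM in PD (SD, n = 3 each) and so fell by 0.63 on the log2 scale (limma adjusted p = 6.9e-06). GNMT (-0.51), a glycine methyltransferase with only 29 to 61 fragments in a library, and MTR (-0.47), the methionine synthase that takes its methyl group from folate, were lower as well. Exons of MAT2A share bases with GGCX on the opposite strand. Of 10 genes of glycine cleavage and choline degradation, 5 were tested, with 3 higher and 1 lower (again beside 31.9% and 26.2%). DLD, a subunit of the glycine cleavage system and of other dehydrogenases, fell by 0.51 on the log2 scale, and CHDH and ALDH7A1, which oxidize choline to betaine, each rose by 0.36.

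Genes that use or carry serine changed both ways. Of 14 listed, 11 were tested, and 5 were higher and 5 lower (31.9% and 26.2% over all genes), with a median log2 fold change of -0.09. SDSL, a serine dehydratase-like protein, showed the largest change, from 4.91, 4.58 and 4.06 FPKM in DMSO to 10.9, 12.4 and 9.57 FPKM in PD, a log2 fold change of 1.11 with an adjusted p of 6.7e-05 (limma), on 77 to 241 fragments in a library. SLC1A4, a transporter of serine and other neutral amino acids, rose by 0.75 and SPTLC2, a subunit of the enzyme that joins serine to a fatty acid for sphingolipids, by 0.71 on the same scale. The other transporters of this list, SLC1A5 (-0.14), SLC38A1 (-0.41), SLC38A2 (-0.36) and SLC6A9 (-0.56), were all lower.

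**Figure D4:**
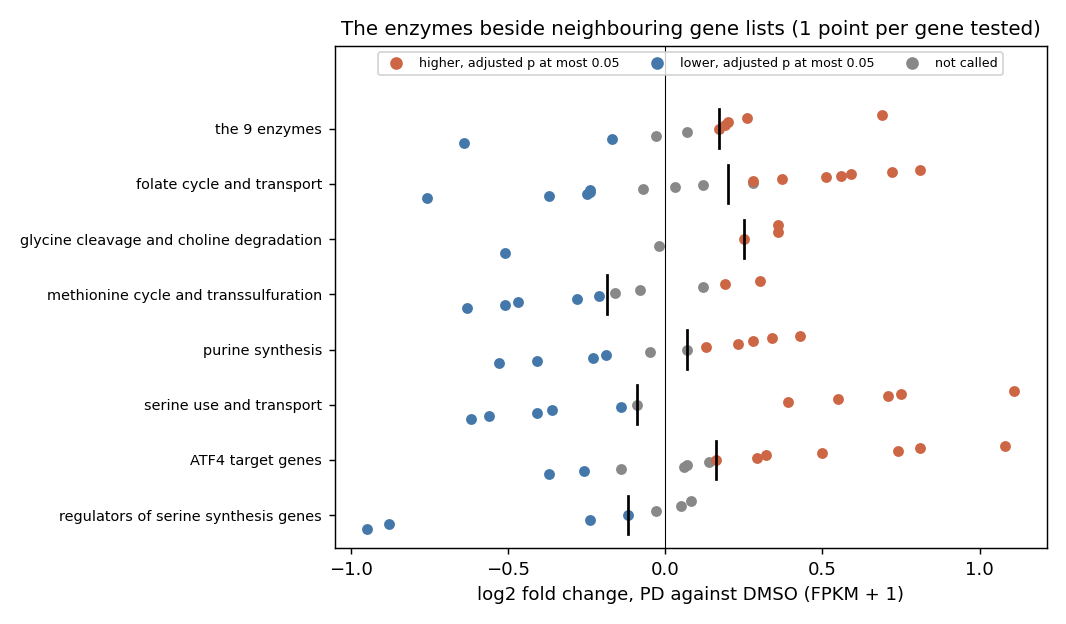
Log2 fold change in PD against DMSO on the FPKM + 1 scale (horizontal axis) of the 9 enzymes and of each tested gene of 7 related lists, 1 point per gene, with the list median as a black bar. Orange points are called as higher, blue as lower and grey are not called, and in most lists both directions occur.

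Transcription factors and other regulators known to act on serine synthesis genes were read beside them. ATF4 mRNA was at 187, 187 and 193 FPKM in DMSO and 182, 182 and 191 FPKM in PD, with a log2 fold change of -0.03, a 95% interval of -0.10 to 0.04 and an adjusted p of 0.45 (limma). Its libraries overlapped, and upper-quartile scaling gave -0.11 with an adjusted p of 0.030. MYC had 216 ± 19.6 FPKM in DMSO and 112 ± 10.2 FPKM in PD (SD, n = 3 each) and fell by 0.95 on the log2 scale (limma adjusted p = 6.7e-05). NFE2L2, a factor of the oxidative stress response, had 29.6 ± 0.82 and 15.6 ± 0.98 FPKM and fell by 0.88 (adjusted p = 1.1e-05). Exons of NFE2L2 share bases with other annotated genes on both strands, which makes its value uncertain. On the opposite strand, HNRNPA3 shares 23.43% of the exon bases of NFE2L2 and was at 42.5 FPKM in DMSO and 26.9 FPKM in PD. MDM2 was lower by less (-0.24), and the histone-modifying enzymes KDM4C (0.08) and EHMT2 (0.05, and -0.03 with upper-quartile scaling) were not called.

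Of 14 other ATF4 target genes, 13 were tested, 7 were higher and 2 lower (31.9% and 26.2% over all genes), and their median on the log2 scale was 0.16. The largest changes were those of DDIT3 (1.08), which encodes the stress factor CHOP, ASNS (0.81), the asparagine synthetase, and CHAC1 (0.74), which degrades glutathione. ASNS had 107 ± 2.21 FPKM in DMSO and 189 ± 2.52 FPKM in PD (SD, n = 3 each), and so rose by 75.9%, where PHGDH, PSAT1 and PSPH rose by 14.2%, 15.2% and 12.5% and MTHFD2 was not called. Exons of ASNS and DDIT3 overlap other annotated genes on the same strand, which have no entry in the expression table. Those of DDIT3 also overlap MARS1 on the other strand, and the values of ASNS and DDIT3 are uncertain. The difference between these genes and the enzymes was not tested.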

How the data were processed

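RNA of cells labelled HepG2 was measured in 6 libraries, 3 with PD and 3 with DMSO, grouped by their titles. The authors used poly-T beads and an NEBNext Ultra kit, mapped read pairs with HISAT2 (hg38), took gene counts from HTSeq (0.6.0), and deposited FPKM made from those counts. Whether counting used strand is not given in the sources used here. The replicates are dishes of 1 line. Each p-value sets a difference against the spread between dishes, which limma draws toward that of genes of similar level.

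Of 28563 identifiers, 28161 had a symbol in GENCODE release 44. limma 3.58.1 (R 4.3.3, trended prior variance, no covariates) was run on log2(FPKM + 1) above a mean of 0.5 FPKM. The pseudocount of 1 understates changes of low genes. Fragments were recovered as the whole numbers, within 0.001, that gave all 6 values of a gene, which succeeded for all 28563 genes. The fits were tested on simulated data.

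The enzymes, lists, markers and tests were chosen with earlier results of these data known, and no list was tested as a set. The text names the 9 enzymes, MTHFD2L and ALDH1L1, the 3 largest called changes of each list, the tested regulators, and the 3 genes most correlated with PHGDH, SHMT2 and MTHFD2. Some genes that this rule names are not reported here. The 7 companion lists held 88 genes, of which 87 were found and 73 tested. Alternatives were a pseudocount of 0.1, no filter, a replicate block, each library left out, median-of-ratios and upper-quartile scaling, and voom on recovered fragments (minimum 10, in 3 libraries).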

Additional observations from a re-analysis of the deposited data

How the results depend on the processing

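With each library left out, 6 to 8 of the 9 enzymes were called, 4 to 6 as higher and 2 as lower. The log2 fold changes then ranged from 0.66 to 0.74 for SHMT1, -0.67 to -0.58 for MTHFD1L, 0.24 to 0.29 for ALDH1L2, 0.17 to 0.22 for PHGDH, 0.18 to 0.23 for PSAT1, 0.12 to 0.20 for PSPH, -0.20 to -0.14 for MTHFD1, -0.06 to -0.01 for SHMT2 and 0.03 to 0.11 for MTHFD2. PSPH was not called without PD replicate 2, and MTHFD2 was called without DMSO replicate 2. Median-of-ratios scaling called 5 enzymes as higher and 2 as lower, and upper-quartile scaling called 3 as higher and 3 as lower. PHGDH (0.11) and PSPH (0.08) were then not called, SHMT2 (-0.12) was called as lower, and MTHFD2 (-0.02) changed direction. A pseudocount of 0.1 called 1248 genes at 2-fold and voom on fragments 1734, against 520. Of the recomputed values, 261 kept their direction and side of the threshold or, for counts, stayed within 1.5 times the reported count and, for ratios, within the replicate spread. Counts still moved within that limit, with 7390 to 7953 genes called when a library was left out and 6 to 7 purine genes against 9. The calls of SHMT1, MTHFD1L, MTHFD1, PSAT1 and ALDH1L2 were kept under all alternatives run. The cause of the differences was not tested. The deviations of same-numbered libraries correlated at -0.03, -0.00 and 0.09. These values show no shared shift by replicate number, but they cannot settle whether same-numbered dishes were paired. With the replicate block 7 enzymes and 8032 genes were called, against 7 and 8368 without it. Depth limits MTHFD2L, with 106 to 213 fragments, and GNMT, with 29 to 61.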

Other observations

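Several genes of one-carbon metabolism that are known to be abundant in liver were low in these libraries. Of the 87 companion genes found, 14 did not reach the mean of 0.5 FPKM needed for the test. Among them were GLDC and AMT, which with other subunits cleave glycine, at no more than 0.110 and 0.020 FPKM in any library. MAT1A, the liver form of the S-adenosylmethionine synthetase, reached 0.116 FPKM, BHMT, which remethylates homocysteine with betaine, 0.070 FPKM, and FTCD, which feeds histidine carbon into folate, 0.180 FPKM. MAT2A, the form found in most other cells, had 139.5 FPKM in DMSO and 89.7 FPKM in PD.

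The genes whose log2(FPKM + 1) followed PHGDH most closely over the 6 libraries were FUCA1, IMPDH1 and TMEM51, with Pearson correlations of 0.9988, 0.9985 and 0.9983. IMPDH1 is also a gene of the purine list. For SHMT2 they were ENSG00000249456, AGRN and H4C4 (0.9758, 0.9754 and 0.9633), and for MTHFD2 they were PFN1P3, SAP18 and PORCN-DT (0.9878, 0.9788 and 0.9734). The points of each correlation share the 2 treatments and the library totals, and with 6 libraries and 14400 genes such values are a description only.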
